A study of Mus musculus with 2 samples.

Results

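The 10 genes described here carry or control the splicing choices that separate epithelial from mesenchymal cells: the regulators Esrp1, Esrp2, Rbfox2 and Mbnl1, and the spliced genes Fgfr2, Cd44, Ctnnd1, Enah, Fn1 and Arhgef11. They were chosen by symbol and not by a cut on their levels, out of 43346 Ensembl genes measured, with earlier results of these data known. RNA longer than 200 nt came from the whole intestine of 2 newborn B6NCrl mice (age 0 days, sex not collected), pup 1 and pup 2 of 1 pregnancy, with 10 ng of RNA per library. No treatment, mutation or transgene is named in the labels, and both pups form 1 group. The deposited expected counts, estimates that may be fractional, summed to 44568098 in pup 1 and 34797495 in pup 2.

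Many genes are spliced differently in epithelial cells, which sit in sheets joined by cadherins, and in mesenchymal cells, which lie loose in matrix. ESRP1 and ESRP2 are epithelial RNA-binding proteins that switch on epithelial exons, while RBFOX2 and the MBNL proteins act in many cell types and often on the same exons. The intestinal wall holds both kinds of cell, so a whole-tissue library can hold both kinds of isoform, and a low share of a form can come from fewer cells of a type or from less RNA per cell, which cannot be told apart in bulk RNA.

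Levels are in TPM, the abundance deposited by the authors after scaling to transcript length, and isoform mixes as shares of TPM over the annotated transcripts (models) that span an event. Values are given per pup and as mean ± SD (n = 2), so the SD describes 2 littermates only. There is no test: with 2 values, the smallest p of an exact sign-flip test is 0.5. Of 148 annotated transcripts of the 10 genes, 57 were listed at 0 in both pups and 26 reached 10% of their gene in at least 1 pup. All shares rest on how the authors' quantification divided reads among overlapping models.

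The tissue carried strong markers of both states. All 14 epithelial markers reached 1 TPM in each pup, and their median was 195 TPM in pup 1 and 206 TPM in pup 2. All 14 mesenchymal markers did so too, with medians of 86.0 and 84.7 TPM. Smooth muscle markers had medians of 190 and 197 TPM (10 of 10 detected). The epithelial median exceeded the mesenchymal one by 1.23 ± 0.073 on the log2 scale, a 2.34-fold difference between these lists and not a cell ratio. Neuronal, endothelial and immune markers were lower, with medians of 13.9 ± 0.0636, 20.9 ± 0.106 and 27.2 ± 1.00 TPM and with 7 of 8, 7 of 7 and 7 of 8 detected.

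All 10 genes were detected, meaning 1 TPM or more in both pups, against 59.1% of all protein-coding genes. They fell into a high and a low set. Mbnl1 had 43.7 TPM in pup 1 and 42.8 TPM in pup 2, Ctnnd1 36.6 and 37.2 TPM, Fn1 30.3 and 34.0 TPM, and Fgfr2 24.5 and 24.5 TPM. Their order was the same in both pups. These 4 genes lay above the median of detected protein-coding genes, 12.6 TPM, and the other 6 lay below it. For Fn1 and Fgfr2 this place rests on 1 model each, described below. Fn1-202, with a retained intron, held 19.2 and 20.3 TPM, and Fgfr2-217 held 12.4 and 12.8 TPM. Without these models, neither gene would average above that median. Cd44 and Esrp2 both averaged 8.12 TPM, with SDs of 0.537 and 1.03. Rbfox2 averaged 7.55 ± 0.544 TPM and Esrp1 6.80 ± 0.629 TPM, and neighbours in this order overlapped, while Esrp1 was below Cd44 and Esrp2 in both pups. Arhgef11 (5.62 ± 0.544 TPM) and Enah (4.73 ± 1.15 TPM) were the lowest, and their values in the pups also overlapped each other.

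**Figure D1:**
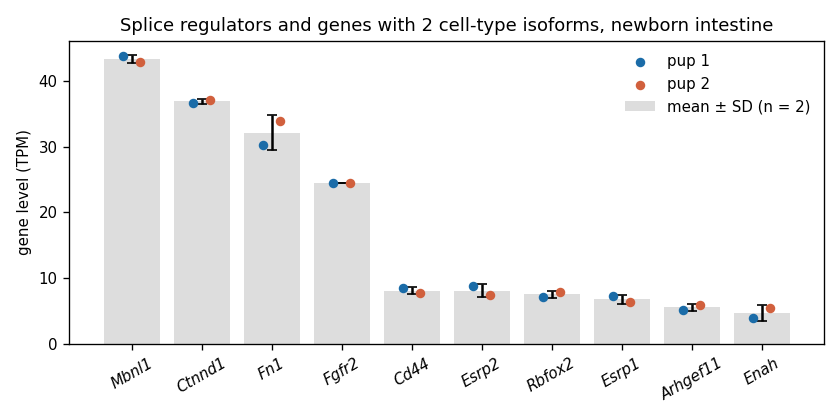
Gene level in TPM (vertical axis) of the 10 genes, with points for pup 1 and pup 2, grey bars for the mean and error bars for the SD (n = 2). Mbnl1, Ctnnd1, Fn1 and Fgfr2 lie above 24 TPM and the other 6 genes below 9 TPM, with the points of both pups close together.

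None of the 10 genes was over 2-fold apart between the pups, where 0.796% of 19088 genes were. A gene counted as apart when the exact 95% interval of its count ratio, pup 1 over pup 2, lay wholly above 2 or below 0.5. The ratios ran from 0.857 for Enah (95% interval 0.787 to 0.934) to 1.18 for Esrp1 (1.06 to 1.30). All intervals and floors in the text cover counting error only, because PCR copies of 1 molecule could not be told apart. Esrp2 had the same tilt as Esrp1, with a ratio of 1.17 (1.06 to 1.30), while Fgfr2 had 1.06 (1.00 to 1.13).

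Esrp1, Esrp2 and Rbfox2 lay between 6.35 and 8.85 TPM, and Mbnl1 was the only regulator in the high set. Esrp1 had 7.24 TPM in pup 1 and 6.35 TPM in pup 2, and Esrp2 had 8.85 and 7.39 TPM. Esrp1 was below Esrp2 in both pups, by -0.25 ± 0.050 on the log2 scale of TPM + 0.1. Rbfox2, a broadly expressed member of the RBFOX family, had 7.16 TPM in pup 1 and 7.93 TPM in pup 2. Relative to Esrp1 it was level in pup 1 (log2 ratio -0.016) and higher in pup 2 (0.32), so the pups do not give 1 direction. Counts not scaled to length put Rbfox2 further above Esrp1 (log2 ratio 1.05), and the leading Rbfox2 model is 6573 nt long, against 3696 nt for Esrp1.

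Each ESRP gene was carried mainly by 1 coding transcript. Esrp1-204, of 3696 nt, took 84.7% of Esrp1 in pup 1 and 83.0% in pup 2, and Esrp1-203, of 3864 nt, took 9.30% and 13.4%. These models differ in internal exons of 151 and 110 nt, which Esrp1-204 lacks and Esrp1-203 holds. Esrp1-203 also has a 199-nt form of an exon that has 187 nt in Esrp1-204. All Esrp1 signal was placed on coding models, where 0 counts out of 914 and 623 allow up to 0.328% and 0.482% on non-coding ones by counting error alone. Posterior means put 98.8% and 98.0% on coding models. Esrp2-201 took 82.5% and 90.9% of Esrp2, and coding models together took 88.0% and 92.0%. The Esrp2 locus overlaps Nfatc3 on the opposite strand, and whether counting used strand is not stated.

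Rbfox2 was split by a 40-nt exon near the part of the gene that encodes the C-terminus. Its length is not a multiple of 3. It lies on the minus strand at chr15:77094451-77094490 of GRCm38, and is shown because the gene's models divide by it. The models with it also hold a 145-nt form of the exon before it, where the models without it hold a 133-nt form. The share below therefore cannot be assigned to the 40-nt exon alone. Here and in all sequences below, capitals mark the alternative exon and lower case the 15 bases on each side in the spliced transcript, read 5′ to 3′ from GENCODE M21 transcripts.

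Rbfox2 40-nt exon: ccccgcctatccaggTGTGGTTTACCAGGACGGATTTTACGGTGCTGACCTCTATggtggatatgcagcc

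Models with this exon took 59.9% of Rbfox2 TPM in pup 1 and 67.6% in pup 2 (63.8 ± 5.43%). The leading one, Rbfox2-203, took 56.1% and 67.6%. Rbfox2-201, which lacks the exon, took 30.3% and 20.5%, and Rbfox2-202, which also lacks it, 9.72% and 11.9%. The form with the exon led in both pups, and by counts the 95% exact intervals of its share were 56.6 to 61.3% in pup 1 and 64.3 to 69.2% in pup 2. Of the 4 Rbfox2 models, 3 have another length in GENCODE M21 than in the deposited tables.

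Mbnl1, whose protein binds YGCY-type motifs and is known for fetal-to-adult splicing changes, was held by several models at once. A 54-nt exon, known for promoting nuclear localisation of the protein, and a 36-nt exon further downstream are shown because each was present in a little under 50% of the signal. They lie on the plus strand at chr3:60614683-60614736 and chr3:60621423-60621458.

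Mbnl1 54-nt exon: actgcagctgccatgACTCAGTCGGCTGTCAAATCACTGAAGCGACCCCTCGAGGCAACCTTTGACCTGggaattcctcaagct
Mbnl1 36-nt exon: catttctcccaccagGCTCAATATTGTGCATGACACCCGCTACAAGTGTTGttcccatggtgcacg

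The 54-nt exon, of 18 residues, was in 47.9% of spanning TPM in pup 1 and 43.8% in pup 2 (45.9 ± 2.93%). The 36-nt exon, of 12 residues, was in 44.9% and 47.9% (46.4 ± 2.09%). The exons divided the models between them. Models with the 18-residue exon alone held 14.2 TPM in pup 1 and 12.9 TPM in pup 2, and models with the 12-residue exon alone held 12.9 and 13.6 TPM. The 1 model with both exons was at 0 in both pups, and models that span both and hold neither had 1.73 and 1.91 TPM. Mbnl1-201, with the 12-residue exon, led with 26.9% and 30.2% of the gene, followed by Mbnl1-214, with the 18-residue exon, at 22.8% and 20.7%. Mbnl1-210, a 576-nt fragment model, took 17.4% and 16.1% of TPM from only 130 and 90.5 estimated reads, and it shares 1 of its 4 exons with Mbnl1-201. The assignment came from short reads and from the combinations that the annotation offers, so it is not a reading of single molecules. A 95-nt exon was in 85.7% and 85.4%.

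Fgfr2, the receptor that binds fibroblast growth factors, has the best known of these switches. Its consecutive exons IIIb and IIIc encode alternative C-terminal parts of the same immunoglobulin domain. Epithelial cells use IIIb and answer FGF7 and FGF10, while mesenchymal cells use IIIc. Exon IIIb is shown because it is the epithelial choice that the share below counts. It has 148 nt and lies on the minus strand at chr7:130199758-130199905.

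Fgfr2 exon IIIb: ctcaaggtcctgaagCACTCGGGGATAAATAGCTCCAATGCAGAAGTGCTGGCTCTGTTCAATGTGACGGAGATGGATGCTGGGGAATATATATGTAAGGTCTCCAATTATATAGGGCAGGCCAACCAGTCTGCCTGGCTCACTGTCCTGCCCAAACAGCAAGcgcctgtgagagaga

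Both forms were present, and IIIc was the larger in each pup. Models with IIIb held 3.51 TPM in pup 1 and 2.26 TPM in pup 2, and models with IIIc held 5.35 and 7.30 TPM. Of the IIIb signal, 1.73 and 1.07 TPM sat on Fgfr2-211. That model has another length in GENCODE M21 than in the deposited tables, so its place in the IIIb class is less certain. The IIIb share of the pair was 39.6% in pup 1 and 23.6% in pup 2 (31.6 ± 11.3%). By counts it was 30.3% of 1068 reads (95% exact interval 27.6 to 33.2%) and 17.8% of 894 reads (15.3 to 20.5%). The pups thus differed by more than counting error, while the gene as a whole had 24.5 TPM in both. The posterior SD of the read assignment adds to that error. For the expressed IIIb models it was 25.5 reads on 140 and 35.2 on 184 in pup 1. In pup 2 it was 18 reads on 71.8 and 23.3 on 87.2. For the IIIc model Fgfr2-215 it was 65.4 reads on 179 in pup 1 and 43.9 on 260 in pup 2. Fgfr2-215 had 1.54 and 2.93 TPM, while Fgfr2-226, with neither exon, had 1.53 and 0.40 TPM. Whether reads were divided differently between these 2 models was not tested. The epithelial over mesenchymal marker contrast was 1.18 on the log2 scale in pup 1, the pup with more IIIb, and 1.28 in pup 2. Esrp1 and Esrp2 were higher in pup 1, with count ratios of 1.18 and 1.17. The cause of the IIIb difference was not tested.

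Most Fgfr2 signal sat on models with neither exon. They took 63.8% of the gene in pup 1 and 61.0% in pup 2. Fgfr2-217 alone had 12.4 and 12.8 TPM (50.5% and 52.3% of the gene). This model has 7 exons, of which 4 are identical to exons of the 18-exon model Fgfr2-215, and its longest intron spans 2.91 Mb. Fgfr2-217 lacks 12 internal exons of Fgfr2-215, those of the immunoglobulin domains among them, so its reads say nothing of IIIb against IIIc. That long intron makes the annotated Fgfr2 locus overlap 43 other genes, 21 of them on the opposite strand. Among the models with IIIb, those that also carry the 267-nt exon of the first immunoglobulin domain were at 0 TPM in both pups. Models with IIIc and that exon held 1.54 and 2.93 TPM, all of it on Fgfr2-215. The IIIc form without it, Fgfr2-207, was steady at 3.81 and 4.04 TPM.

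Few Fgfr2 ligands were detected. Of 10 listed, 2 reached 1 TPM in both pups. They were Fgf9, known to act on mesenchymal receptors, with 4.56 and 4.55 TPM, and Fgf1, which binds both forms, with 2.77 and 3.71 TPM. Fgf7 and Fgf10, the mesenchymal ligands of IIIb, had 0.76 and 0.76 TPM and 0.35 and 0.37 TPM. Fgf3, Fgf4, Fgf8 and Fgf22 were under 0.1 TPM in both pups.

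Cd44, the hyaluronan receptor, can insert up to 10 variable exons into its extracellular stem. Standard Cd44 without them is typical of mesenchymal and blood cells, and ESRP proteins favour the variable exons in epithelia. Exons v7 and v8, numbered 5′ to 3′ by their order in the annotation, are shown because neighbouring exons had opposite use. They lie on the minus strand at chr2:102837813-102837938 and chr2:102834234-102834335, and both join to the same upstream bases.

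Cd44 exon v7: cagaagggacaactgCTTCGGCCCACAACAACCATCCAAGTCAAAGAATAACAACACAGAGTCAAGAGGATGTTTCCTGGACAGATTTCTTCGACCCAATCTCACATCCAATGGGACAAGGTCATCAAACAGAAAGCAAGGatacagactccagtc
Cd44 exon v8: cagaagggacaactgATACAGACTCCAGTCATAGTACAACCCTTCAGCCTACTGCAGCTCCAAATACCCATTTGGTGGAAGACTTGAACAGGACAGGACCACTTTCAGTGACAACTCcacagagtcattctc

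Models with at least 1 variable exon took 76.0% of spanning Cd44 TPM in pup 1 and 74.3% in pup 2 (75.2 ± 1.21%). The main one, Cd44-207, joins v5, v6, v8, v9 and v10 and took 68.0% and 71.3% of the gene. Standard Cd44-203 took 23.5% and 25.3%. Exon v8 was in 75.4% and 74.3%, against 5.28% and 1.97% for v7 and 4.32% and 1.44% for v1, v2 and v3. The full-length variable form Cd44-201, with v1 to v10, took 4.22% and 1.41%. Cd44-207 and Cd44-201 have an annotated 3′ untranslated region of 2995 nt and Cd44-203 one of 1589 nt, and reads in the added stretch go to the variable models whatever the stem holds. Models with v9 or v10 and no v8 are annotated, and they held 0.56% of the gene or less in each pup.

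**Figure D2:**
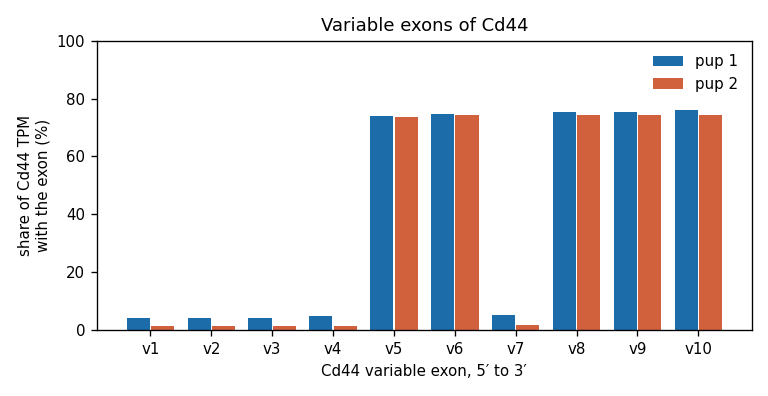
Share of spanning Cd44 TPM (percent, vertical axis) in models with each variable exon v1 to v10, with a bar for pup 1 left of a bar for pup 2. Exons v5, v6, v8, v9 and v10 stand between 73.8% and 76.0%, and v1 to v4 and v7 at 5.28% or less.

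Ctnnd1 encodes p120 catenin, which binds and stabilises cadherins at junctions. Its forms differ by where translation starts: mesenchymal cells favour the full-length protein (isoform 1), and epithelial cells the shorter isoform 3, which lacks the N-terminal coiled coil. Coding models starting downstream of residue 1 took 76.7% of coding Ctnnd1 TPM in pup 1 and 79.6% in pup 2 (78.2 ± 2.06%). That total holds unlike forms. The isoform 3 start, residue 102 of the longest model, took 31.0% and 28.4%, and the full-length start took 23.3% and 20.4%. The start at residue 55 (isoform 2) took 8.17% and 12.6%. The largest class, with 37.5% and 38.6%, starts at residue 324 and consists of 1 model, Ctnnd1-206, with 13.6 and 14.0 TPM. All 14 exons of Ctnnd1-206 are identical to exons of the 21-exon model Ctnnd1-220, of which it lacks 7 internal exons. Reads within those shared exons do not by themselves tell this start from the others. Set against each other alone, the isoform 3 start had 11.2 and 10.3 TPM, and the full-length start 8.41 and 7.37 TPM.

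**Figure D3:**
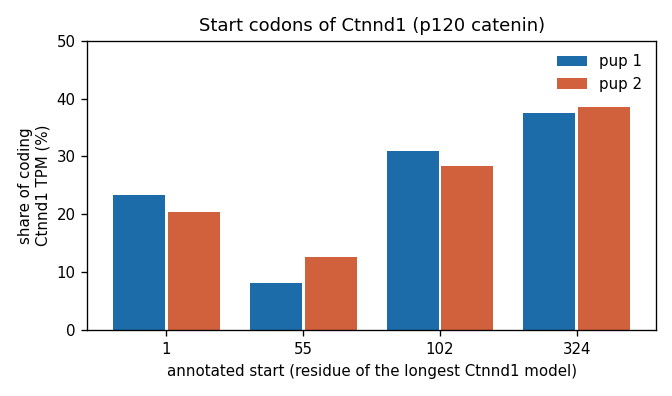
Share of coding Ctnnd1 TPM (percent, vertical axis) by annotated start codon, numbered as residues of the longest model (horizontal axis), with a bar for pup 1 left of a bar for pup 2. The start at residue 324 has the tallest bars, 37.5% and 38.6%, and the start at residue 55 the lowest, 8.17% and 12.6%.

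Inner exons of Ctnnd1 also varied in use. Exon C, of 18 nt, sits inside the armadillo repeats and is known from neural tissue. Exon A, of 63 nt, and exon B, of 87 nt, lie towards the C-terminus. Exons A and C are shown as the most used and the least used of the 3, on the minus strand at chr2:84605184-84605246 and chr2:84612532-84612549.

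Ctnnd1 exon A: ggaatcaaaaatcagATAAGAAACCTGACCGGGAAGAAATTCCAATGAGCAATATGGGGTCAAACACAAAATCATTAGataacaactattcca
Ctnnd1 exon C: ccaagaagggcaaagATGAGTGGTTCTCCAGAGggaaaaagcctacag

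Exon A was in 68.8% of spanning TPM in pup 1 and 78.8% in pup 2. Exon B was in 38.8% and 39.3%, and exon C in 8.47% and 9.91%. The leading models after Ctnnd1-206 were Ctnnd1-207 (22.6% and 19.2% of the gene) and Ctnnd1-202 (21.4% and 18.9%). Ctnnd1-213 had 4.08% in pup 1 and 11.4% in pup 2, but 4.01% and 4.76% by posterior means, and the posterior SD of its count was 201 reads on 318 in pup 1.

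Enah encodes Mena, which speeds actin filament growth at the cell edge. Its exon 11a, of 21 residues, is an epithelial exon that is skipped in invasive and mesenchymal cells. It is shown because little signal was assigned to it here, and it lies on the minus strand at chr1:181911597-181911659.

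Enah exon 11a: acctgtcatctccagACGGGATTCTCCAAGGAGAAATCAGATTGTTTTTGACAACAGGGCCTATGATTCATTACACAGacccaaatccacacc

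Only Enah-202 carries exon 11a, and it had 0.21 TPM in pup 1 and 0 TPM in pup 2. The share of spanning TPM was 6.21% and 0% (3.11 ± 4.39%). In reads that was 26.9 of 1084 in pup 1 (2.49%, 95% exact interval 1.65 to 3.60%) and 0 of 1003 in pup 2 (0 to 0.367%). For reads counted as assigned, a count of 0 allows up to 3 reads, or 0.299%. Posterior mean estimates of the TPM share were 5.28% and 1.04%, so the pup 2 share is not bounded by the counting limit. Enah-211, which lacks the exon, took 63.5% and 52.3% of the gene. The intron-retaining Enah-208 took 12.7% and 17.2%, from 32 and 47 reads. Enah-211 has a 3′ untranslated region of 9479 nt, which holds most of its 11229 nt, so most Enah reads lie away from the exon and few can bear on it. That of Enah-202 has 1463 nt, so reads in the added stretch cannot go to Enah-202, whether or not the molecule holds the exon. How far this lowers the share was not tested.

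Fn1 encodes fibronectin, a matrix protein made by mesenchymal cells. Its cassette repeats EDA (90 residues) and EDB (91 residues) are included in embryonic and wound fibronectin and left out of liver-made plasma fibronectin. The EDA share was 25.7% in pup 1 and 24.4% in pup 2 (25.1 ± 0.885%) over all spanning models. Among coding models alone it was 97.7% and 100%. Most of the difference is the retained-intron model Fn1-202, which lacks EDA and held 19.2 and 20.3 TPM, or 63.4% and 59.7% of the gene. Of its 17 exons, 14 are identical to exons of the 46-exon coding model Fn1-201. The EDB share was 42.0% and 37.5% (39.8 ± 3.20%) over all models, and 47.1% and 44.7% among coding ones. Fn1-201, with both repeats, took 10.6% and 8.62% of the gene, and Fn1-214, with EDA and no EDB, took 10.1% and 10.7%. Whether reads of coding mRNA without EDA were assigned to Fn1-202 was not tested.

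Arhgef11 encodes an activator of RhoA that acts on the cytoskeleton at junctions. Its known switch is a 32-residue exon near the C-terminus, skipped in epithelial cells. No annotated exon of that size was found among the 5 Arhgef11 models, so its share could not be computed. Arhgef11-201 took 78.9% of the gene in pup 1 and 65.0% in pup 2, Arhgef11-202 15.6% and 20.4%, and the retained-intron Arhgef11-203 3.15% and 14.6%. A 30-nt exon found only in Arhgef11-202 was in 16.4% and 23.8% of spanning TPM. Arhgef11-202 also lacks a 120-nt exon of Arhgef11-201, and its exon before the 30-nt one has 100 nt in place of 97 nt. That share therefore cannot be assigned to the 30-nt exon alone. The gene overlaps Lrrc71 on the opposite strand.

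Side by side, the epithelial forms did not share 1 level. Cd44 variable exons stood at 75.2 ± 1.21%, Fgfr2 IIIb at 31.6 ± 11.3% of its pair and Enah exon 11a at 3.11 ± 4.39%. Reads in the longer 3′ untranslated regions go to variable Cd44 models and away from Enah-202, whatever exons the molecule holds. How far that widens this range was not tested. The Ctnnd1 start at residue 102 held 29.7 ± 1.84% of TPM over all coding starts, a wider base than the Fgfr2 pair. Against the full-length start alone it was the larger, with 11.2 against 8.41 TPM in pup 1 and 10.3 against 7.37 TPM in pup 2. These shares come from different genes, whose levels in each cell type were not measured, so they are not estimates of 1 epithelial fraction. The spread between littermates was widest for Fgfr2 IIIb.

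**Figure D4:**
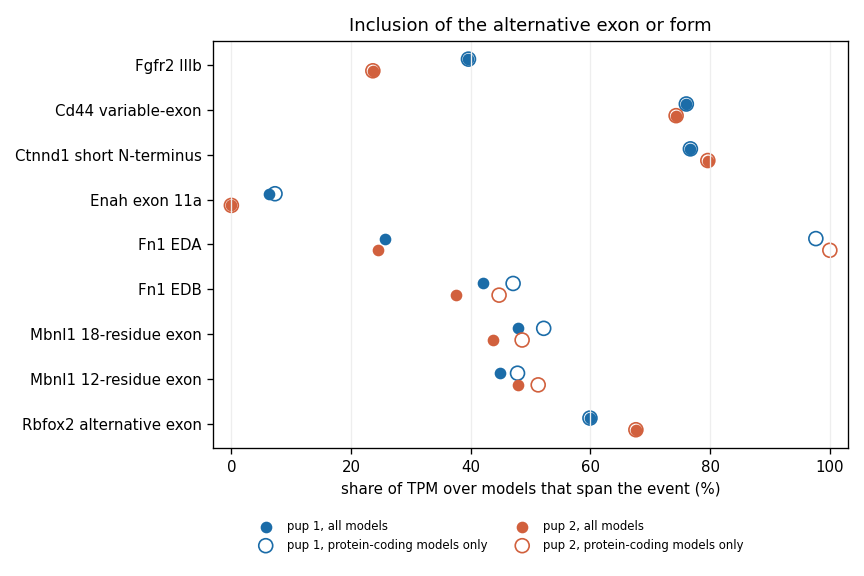
Share of spanning TPM (percent, horizontal axis) in models with the named exon or form, for each event, with pup 1 above pup 2. Filled points use all models and open circles protein-coding models only; they part most for Fn1 EDA, at 25.7% and 24.4% against 97.7% and 100%.

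Non-coding models, such as those with retained introns, took a median of 8.77% of these genes in pup 1 and 8.37% in pup 2. The median over 9241 detected protein-coding genes was 4.19% and 4.89%, with upper quartiles of 21.8% and 23.3%. Fn1 (72.4% and 75.3%) and Enah (26.5% and 35.6%) stood above that quartile in both pups. These are shares of TPM, in which short models weigh more than in reads. Enah-208, the largest non-coding Enah model, has 1890 nt. It held 32 of 1110 Enah reads in pup 1 and 47 of 1038 in pup 2. No TPM of Esrp1 or Rbfox2 was on non-coding models.

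Between the pups, 4 of the 26 transcripts at 10% or more of their gene differed by 10 points or more in share, against 22.1% of 20628 such transcripts of all detected genes. That is 15.4% of the set, close to the background. The 4 were Arhgef11-201, Arhgef11-203, Enah-211 and Rbfox2-203. The median absolute difference was 3.38 points for these genes and 4.01 points over all. The leading transcript of a gene held a median of 63.4% in pup 1 and 62.3% in pup 2 for the 10 genes, and 73.7% and 73.4% over all genes with at least 2 transcripts.

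**Figure D5:**
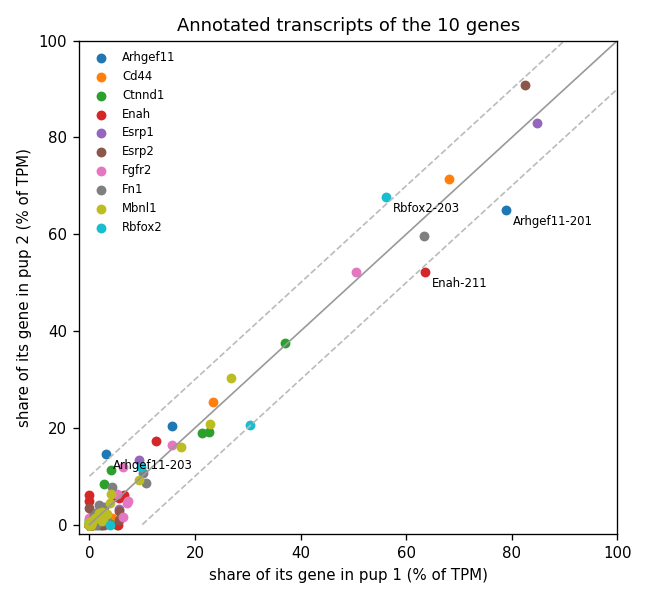
Share of each annotated transcript in its gene's TPM, in percent, for pup 1 (horizontal) and pup 2 (vertical), coloured by gene. The solid line marks equal shares and the dashed lines 10 points of difference; the named transcripts are the 4 beyond them.

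Other genes of the same pathway were widely present. Of 26 further splicing regulators, 23 were detected, led by Hnrnpa2b1 (346 ± 1.24 TPM), Hnrnpf (270.0 ± 7.04), Srsf3 (266 ± 2.23) and Hnrnpa1 (165 ± 4.46). The relatives of Rbfox2 were near the threshold, with Rbfox1 at 1.14 and 1.04 TPM and Rbfox3 at 0.97 and 1.06 TPM. Of 15 other genes with ESRP-dependent exons, 14 were detected, led by Dnm2 (55.9 ± 2.26 TPM), Exoc7 (36.5 ± 2.54), Itga6 (28.2 ± 2.55) and Tcf7l2 (27.6 ± 2.62). Of 16 transcription factors of the epithelial or mesenchymal state, 14 were detected. The epithelial factors Elf3 (130.0 ± 2.67 TPM), Klf5 (78.2 ± 0.134), Klf4 (20.9 ± 2.72) and Ehf (17.4 ± 2.52) were the highest, and Grhl1 and Grhl3 were under 1 TPM. All mesenchymal factors of the list were detected too, led by Prrx1 (12.7 ± 1.15 TPM) and Zeb2 (11.3 ± 0.460). The epithelial Ovol1 (12.7 ± 1.32) was level with Prrx1, and Ovol2 (6.16 ± 0.247) and Grhl2 (2.91 ± 0.530) were lower.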

How the data were processed

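The deposited tables hold 1 gene table and 1 transcript table per library. Their expected counts, with posterior mean estimates, TPM values, which the authors scaled to effective length, and transcript shares of a gene in percent are used as deposited. The assembly was mm10 with GENCODE M4, per the submitters' processing notes and the deposited text file. The columns are named as in RSEM output, and the sources used here name no aligner, quantifier, version or use of strand. Extraction used mirVana and the protocol cites a SMARTer Ultra Low manual, per the labels' protocols. Exons, start codons and sequences were read from the GENCODE M21 annotation of GRCm38, which is the same assembly. All 148 transcripts matched by identifier, 144 with equal length, the rest being Rbfox2 models and Fgfr2-211. The sequence of 1 Fgfr2 exon is not reported here. Genes with reads shared with overlapping genes are uncertain.

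The 10 genes, the lists and the rule for named transcripts (10% of the gene or more in either pup, those of the events, and up to 4 members of each context list) were chosen with earlier results of these data known. Some further list members are named for contrast. An event's share is the TPM of models with the exon over that of models spanning it, per pup. Ratios between pups used expected counts rounded to whole numbers, TMM library sizes of edgeR 4.0.16 (R 4.3.3), and exact Clopper-Pearson 95% intervals from SciPy 1.17.1, at a summed count of 10 or more. The rounded counts summed to 44568095 and 34797451. A gene at 0 can hide 3 counts, or 0.0673 and 0.0862 CPM. On simulated data over 19088 genes, the rule for genes over 2-fold apart called 0 of 50 at 1.5-fold, 49 of 50 at 3-fold, 50 of 50 at 6-fold, and 0 of 18888 unchanged genes. Alternatives were expected counts or posterior means in place of TPM, coding models only, a pseudocount of 1 TPM, a threshold of 0.5 TPM, DESeq2 1.42.0 size factors, no count filter and each pup alone. Python 3.11.15, numpy 2.4.6, pandas 2.3.3 and matplotlib 3.10.9 were used.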

Additional observations from a re-analysis of the deposited data

How the results depend on the processing

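Of 72 alternative values for 16 results, 55 stayed within the spread of the pups or within the same count, 16 moved by more and 1 turned its sign. With expected counts in place of TPM, the share was 84.4% for Cd44 variable exons, 40.6% for Fn1 EDA, 44.5% for Fn1 EDB, 50.4% for the Mbnl1 12-residue exon and 98.6% for coding Esrp2. With protein-coding models only, it was 98.8% for EDA, 45.9% for EDB, 50.4% for the Mbnl1 18-residue exon and 49.5% for the 12-residue one. Posterior mean TPM gave 24.1% for EDA, 98.4% for coding Esrp1, 81.6% for coding Esrp2 and a log2 ratio of -0.35 for Esrp1 over Esrp2. Counts not scaled to length gave log2 values of -0.055 for Esrp1 over Esrp2, 1.05 for Rbfox2 over Esrp1 and 0.83 for the marker contrast.

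With each pup alone, the share ran from 23.6% to 39.6% for Fgfr2 IIIb, 74.3% to 76.0% for Cd44, 76.7% to 79.6% for Ctnnd1, 0% to 6.21% for Enah exon 11a, 24.4% to 25.7% for EDA and 37.5% to 42.0% for EDB. It ran from 43.8% to 47.9% and 44.9% to 47.9% for the Mbnl1 exons, 59.9% to 67.6% for Rbfox2 and 88.0% to 92.0% for coding Esrp2, and was 100% for Esrp1. Log2 values ran from -0.29 to -0.22 for Esrp1 over Esrp2 and 1.18 to 1.28 for the marker contrast. Rbfox2 over Esrp1 turned to -0.016 without pup 2, against 0.32 without pup 1. The Fgfr2 IIIb share was 24.1% by counts and 34.4% by posterior means. The 10 detected genes and the 0 genes over 2-fold apart stood under every alternative run for them. The causes were not tested. The Arhgef11 exon gave no value under any setting, because no annotated exon of its size was found. No paired analysis was possible because all samples form 1 group. The Enah exon 11a share rests on 26.9 assigned reads in pup 1 and 0 in pup 2.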
